A study of Mus musculus with 6 samples.

Results

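Ran, the karyopherins and the nucleoporins carry proteins and RNA between nucleus and cytoplasm. Their transcripts were followed in MIN6, an insulin-producing line from a mouse beta cell tumour, after siRNA against TDP-43, the nuclear RNA-binding protein encoded by Tardbp. The members were 47 genes named by symbol, each read on the probe set that the platform annotation gives to that gene alone and that was brightest on average over the 6 arrays. Of these, 44 had such a probe set (Nutf2, Nup35 and Tpr did not, in the annotation used), and all 44 passed the filter on low signals, among 12619 genes tested. There were 3 arrays of cells given control siRNA and 3 of cells given TDP-43 siRNA, each as 100 pmol by electroporation. The line, its medium and the electroporation were the same in both groups. The labels name a single TDP-43 siRNA treatment, so lower TDP-43 and other effects of the siRNA cannot be told apart. Neither siRNA's sequence nor the time between electroporation and harvest is given in the sources used here. Nothing in the labels says that replicates came from separate cultures, and p-values then measure only the spread between these samples, which may be technical.

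Ran is a small GTPase kept in its GTP form in the nucleus and its GDP form in the cytoplasm. Importins bind cargo in the cytoplasm and drop it when nuclear RanGTP binds them; exportins bind cargo together with RanGTP and drop it when the GTP is hydrolysed outside. All pass through the nuclear pore, whose rings hold a channel of nucleoporins rich in phenylalanine-glycine repeats, and TDP-43 itself enters the nucleus through the classical importin alpha and beta route.

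Each array gave signals, in the linear units of the MAS5 algorithm, for 45101 probe sets with a trimmed mean of 500.003, and array medians lay between 72.3 and 79.97. Across genes the arrays correlated between 0.985 and 0.991. Precision is limited by the small number of arrays. Of 10 beta cell markers 8 had a single-gene probe set, and all 8 passed the filter on low signals, with Ins2 between 6918 and 8372 on the 6 arrays. None of the 8 passed the test between groups described next, with 1 at an unadjusted p below 0.05. The filter was also passed by 5 of 8 markers of other islet cells, 3 of 8 of acinar and duct cells and 4 of 8 of fibroblasts, endothelial and immune cells. Of these 0 passed the limma test, with 1 in each list at an unadjusted p below 0.05. Some markers of other cells were bright on every array. Of the other islet cell markers, Gcg read between 7345 and 10654 and Ttr between 20776 and 23853. Krt7, on the acinar and duct list, read between 4821 and 6108. In the last list, Pecam1, of endothelial cells, was at 30.6 or less and Ptprc, of immune cells, at 16.9 or less on every array. The 4 of that list that passed the filter, Col1a2, Thy1, Lyz2 and Cd68, read between 26.9 and 118. On the brightest of its 5 probe sets, Tardbp fell to 55.6% of the control signal after its siRNA, from 3748, 3939.6 and 3699 in the 3 control arrays to 2257, 2249 and 1836. The log2 difference was -0.85 (SE 0.08, limma adjusted p = 0.00187).

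After TDP-43 siRNA, 2 of the 44 members fell, the importin Ipo4 and the Ran-binding cofactor Ranbp1, and none rose past the threshold (limma, Benjamini-Hochberg adjusted p below 0.05 over all genes). Among all genes tested, 0.745% passed, 0.578% lower and 0.166% higher, beside 4.55% of members lower and 0 members higher. At an unadjusted p below 0.05 there were 6 members (13.6%), 5 of them lower and 1, the tRNA exportin Xpot, higher, against a background of 12.6%. Here and throughout, a difference is the mean log2(signal + 12) under TDP-43 siRNA less that under control siRNA, a scale that understates the change of dim probe sets. A signal read from bulk RNA cannot tell fewer cells that express a gene from less of its RNA per cell.

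Small differences leaned lower. Of the 44 members, 31 lay below 0 (70.5%, against 45.0% of all genes), and the median was -0.06, against 0.02 over all genes. All 3 TDP-43 siRNA arrays lay below all 3 control arrays for 10 members (22.7%, background 8.32%) and above them for 4 (9.09%, background 9.98%). The 17 nucleoporins had a median of -0.10 with 14 below 0, yet 0 passed, nor did any reach an unadjusted p below 0.05 on its brightest probe set. Dimmer probe sets of Nup155 (-0.30, limma unadjusted p = 0.00983) and Nup133 (-0.19, 0.0265) did, but did not pass after adjustment over probe sets. The 27 soluble factors, which include Ipo4 and Ranbp1, had a median of -0.03 with 17 below 0. Whether the nucleoporins differ from the soluble factors was not tested.

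**Figure D1:**
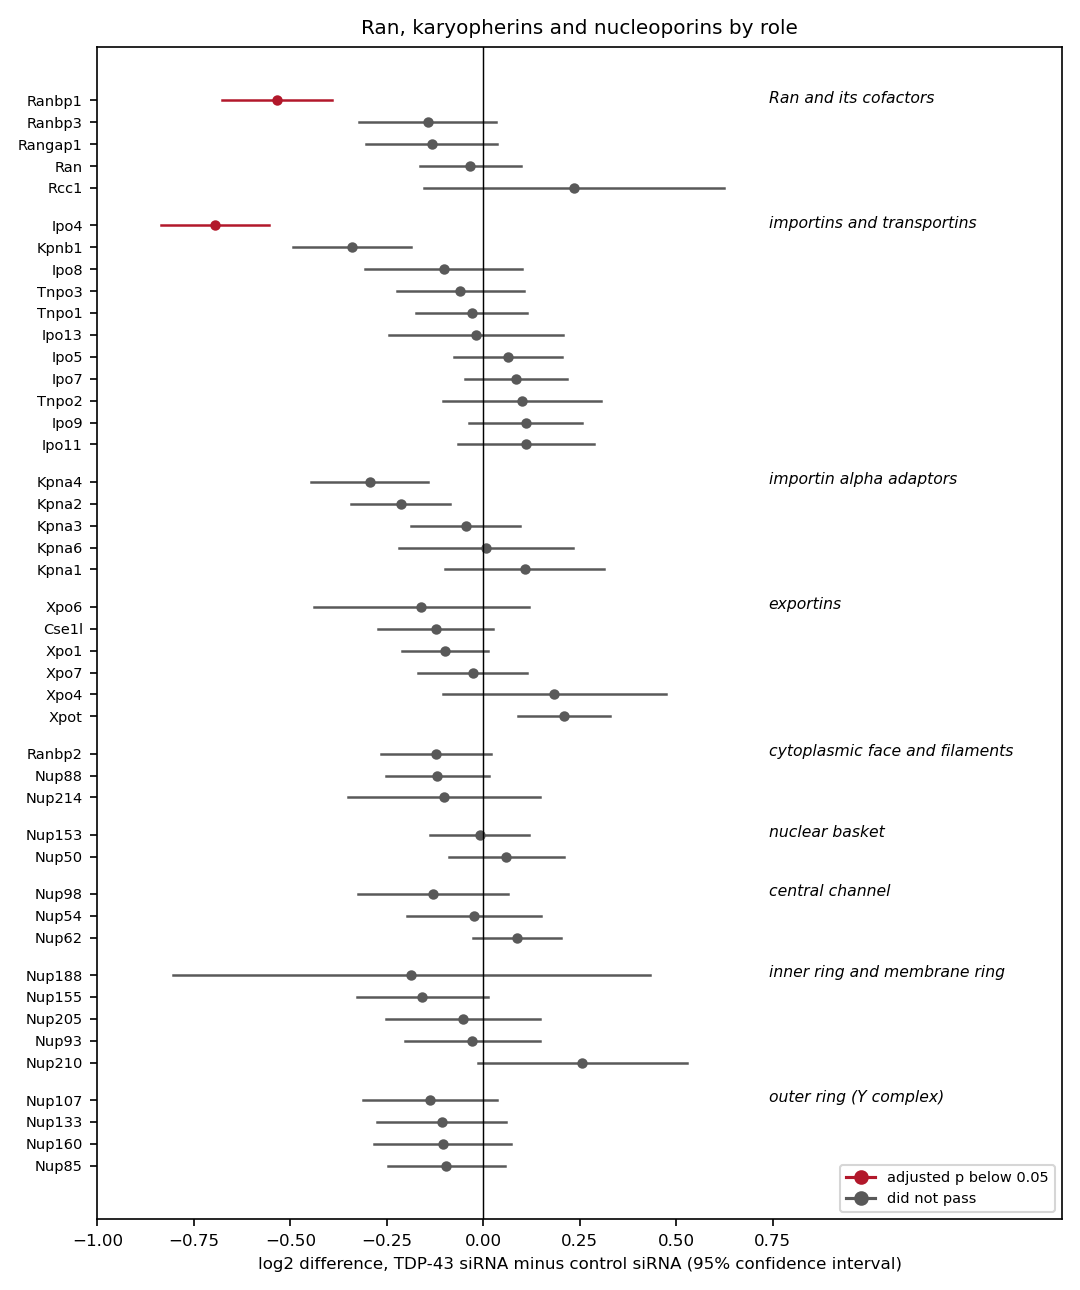
Log2 difference in signal, TDP-43 siRNA minus control siRNA (x axis), for the 44 measured members (y axis) grouped by role, with the 95% confidence interval of the limma fit on 3 arrays per group. Ipo4 at -0.69 and Ranbp1 at -0.53 (red) are the members past the adjusted threshold of 0.05; the other 42 did not pass.

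Ipo4, importin-4, brings histones and ribosomal proteins into the nucleus. On its brighter probe set, 1436420_a_at, the control arrays read 2308, 2170.5 and 2188, and the TDP-43 siRNA arrays 1370.4, 1372 and 1361. The groups lay far apart, with all TDP-43 siRNA arrays within a narrow band. The difference was -0.69 (SE 0.06, limma adjusted p = 0.00107), a signal of 61.8% of control with a 95% confidence interval of the log2 difference from -0.83 to -0.56. The second probe set, 1450814_a_at, read 925, 896 and 811 in control arrays and 580.5, 622 and 572 after TDP-43 siRNA. It fell too, by 0.56 (SE 0.09, limma adjusted p = 0.0263 over probe sets, where 0.585% passed). Ipo4 passed in each of the 18 alternative fits that were run, with adjusted p between 0.000573 and 0.0416.

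Ranbp1 helps RanGAP1 release Ran from karyopherins and trigger GTP hydrolysis on the cytoplasmic side. Its 1 probe set, 1422547_at, read 7803, 7764 and 7081 in control arrays and 5233, 5520.1 and 4879 after TDP-43 siRNA. The lowest control array stayed well above the highest TDP-43 siRNA array. The difference was -0.53 (SE 0.06, limma adjusted p = 0.00445), or 69.1% of the control signal, with a confidence interval from -0.68 to -0.39. Leaving out any 1 array kept it past the threshold, with adjusted p up to 0.0365, whereas dropping the intensity trend from the variance model gave 0.0869.

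**Figure D2:**
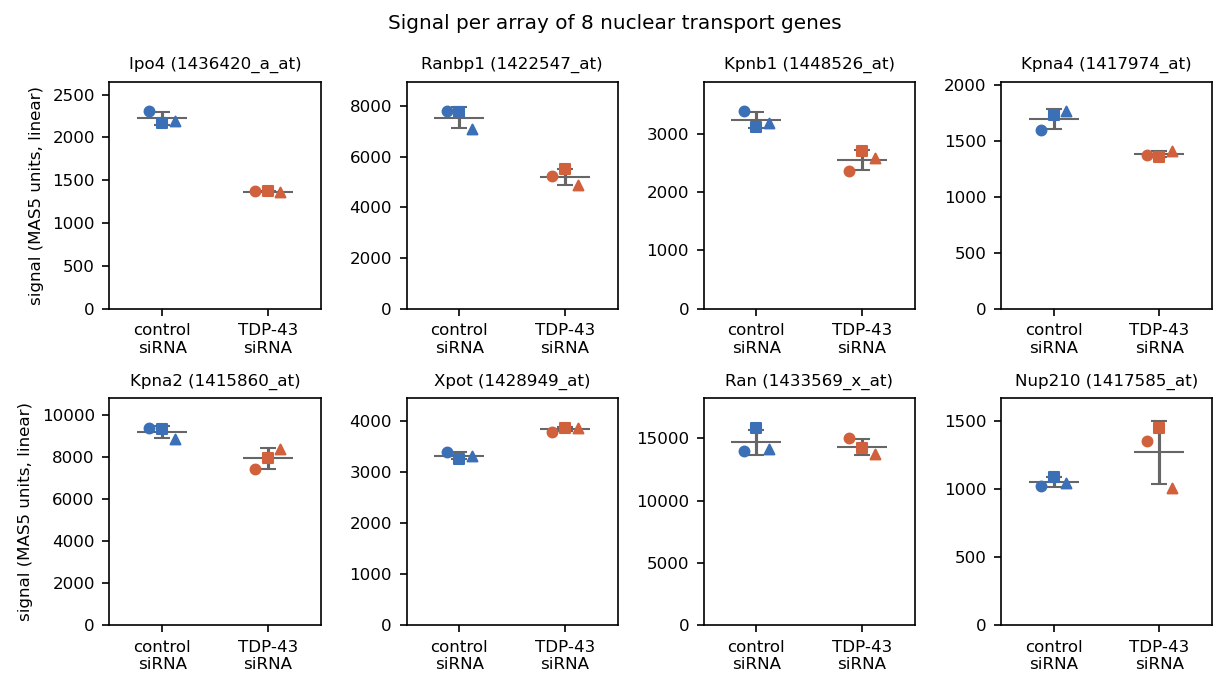
Signal on each array (y axes from 0, MAS5 units on a linear scale) for 8 members by siRNA group, with circles, squares and triangles for replicates 1, 2 and 3; the horizontal line is the group mean and the bar 1 SD (n = 3). The groups are apart for Ipo4, Ranbp1, Kpnb1, Kpna4, Kpna2 and Xpot and overlap for Ran and Nup210, where TDP-43 siRNA replicate 3 (1013) lies below the control arrays.

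The promoters of the members that fell are shown with that of Ran, which did not pass. Any part of these promoters in the transcript differences was not tested. Each is the 250 bases before the start of the gene in RefSeq on GRCm38.p6, 5′ to 3′ on the gene's strand: Ipo4 at chr14:55635685-55635934 (minus strand), Ranbp1 at chr16:18248695-18248944 (minus strand) and Ran at chr5:129019906-129020155 (plus strand). Capitals mark matches to any of 4 short motifs, searched on both strands and chosen with these sequences in view: CCAAT, the CCAAT box; GCGCATGC, a core of NRF1 sites; CACGTG, the E-box; and TTTGAA, the cell cycle element called CHR.
Ipo4: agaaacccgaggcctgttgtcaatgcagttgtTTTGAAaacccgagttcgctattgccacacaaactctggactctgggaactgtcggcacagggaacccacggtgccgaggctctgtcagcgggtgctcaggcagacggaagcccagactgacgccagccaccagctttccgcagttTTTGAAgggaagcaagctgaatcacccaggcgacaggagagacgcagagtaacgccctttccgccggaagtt
Ranbp1: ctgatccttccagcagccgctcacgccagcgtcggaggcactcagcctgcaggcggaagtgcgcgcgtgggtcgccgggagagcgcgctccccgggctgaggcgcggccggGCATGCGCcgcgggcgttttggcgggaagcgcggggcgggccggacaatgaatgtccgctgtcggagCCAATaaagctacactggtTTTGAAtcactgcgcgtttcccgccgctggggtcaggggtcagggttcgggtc
Ran: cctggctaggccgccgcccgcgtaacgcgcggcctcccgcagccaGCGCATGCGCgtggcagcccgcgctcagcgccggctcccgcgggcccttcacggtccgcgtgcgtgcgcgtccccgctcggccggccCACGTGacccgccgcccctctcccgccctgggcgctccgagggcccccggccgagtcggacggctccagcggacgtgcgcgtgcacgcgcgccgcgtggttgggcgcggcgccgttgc

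The Ipo4 and Ranbp1 windows both hold TTTGAA, 72 and 218 bases before the start in Ipo4 and 53 bases before it in Ranbp1, where a CCAAT lies 72 bases before the start. Shares refer to the same window, the 250 bases before the start, in members and in all genes. Of the 38 members with a promoter in the table, 8 hold TTTGAA (21.1%, against 16.3% of 27025 genes), among them also Kpna2, Rcc1, Nup98, Ipo7, Tnpo2 and Tpr. CCAAT was found in 17 (44.7%, against 34.5%), CACGTG in 8 (21.1%, against 6.05%) and GCGCATGC in 5 (13.2%, against 2.32%). In Ran, GCGCATGC and its reverse complement overlap by 6 bases. Ipo4, Ranbp1 and Ran, in view of which the motifs were chosen, are counted in these member shares. That choice raises the shares, so they cannot show that a motif is more frequent in members. The shares over all genes were not matched to the members for base composition or for expression in these cells. A match says only that these letters are present.

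The rest of the Ran cycle did not pass. Ran itself was bright, and its probe set 1433569_x_at read 13979, 15862 and 14183 in control arrays and 15000.0, 14251 and 13729 after TDP-43 siRNA. These groups overlap throughout, and the difference was -0.03 with a confidence interval from -0.17 to 0.10 (limma adjusted p = 0.873). The x suffix marks probes that can also read related transcripts. On the Ran probe set without it, 1460551_at, control arrays read 2685, 2672 and 2684 and TDP-43 siRNA arrays read slightly more, 2867, 2797 and 2808, a difference of 0.07 (limma adjusted p = 0.673 over probe sets).

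Rangap1, the GTPase activator for Ran, read 3979, 3691 and 3364 in control arrays and 3314, 3569 and 3158 after TDP-43 siRNA (-0.13, SE 0.08, limma adjusted p = 0.506). Rcc1, the chromatin-bound exchange factor that reloads Ran with GTP, read 368, 399 and 264 against 495, 386 and 336 (0.24, SE 0.17, limma adjusted p = 0.631). Both sets of groups overlap on these probe sets, and in Rcc1 control replicate 3 was the lowest array and TDP-43 siRNA replicate 1 the highest. On another probe set of Rangap1, 1423749_s_at, the groups were apart at -0.16 (limma adjusted p = 0.476 over probe sets). Without control replicate 3 the Rcc1 difference was 0.06. Ranbp3, a cofactor of the exportin Xpo1, was at -0.14 (SE 0.08).

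Importin beta and the importin alpha adaptors form the classical import route. Kpnb1, importin beta itself, read 3391, 3123 and 3192 in control arrays and 2369, 2704 and 2589.5 after TDP-43 siRNA. The groups did not overlap, but the difference of -0.34 (SE 0.07) stayed short of the threshold (limma adjusted p = 0.0619, confidence interval from -0.49 to -0.19). The other 3 probe sets of Kpnb1 were lower as well, between -0.33 and -0.20. Kpnb1 passed in 1 of 18 alternatives, the one with array weights (limma adjusted p = 0.0461).

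Kpna4, importin alpha 3, read 1601, 1737 and 1770.2 in control arrays and 1381, 1362 and 1410.5 after TDP-43 siRNA (-0.29, SE 0.07, limma adjusted p = 0.0977). Kpna2, importin alpha 1, read 9398, 9328 and 8851 against 7438, 7958 and 8399 (-0.21, SE 0.06, limma adjusted p = 0.149). For both adaptors each TDP-43 siRNA array was below each control array, and 0 of the 5 adaptors passed, with 2 at an unadjusted p below 0.05. Kpna3 was at -0.05, Kpna6 at 0.01 and Kpna1 at 0.11, with overlapping groups on their brightest probe sets. Probe sets of Kpna1 ran from -0.08 to 0.32 and those of Kpna3 from -0.05 to 0.09. The groups were apart on 1419548_at of Kpna1 (0.20, limma unadjusted p = 0.0489) and 1421828_at of Kpna3 (0.09), neither passing after adjustment. With the threshold at an adjusted p of 0.1, Kpnb1 and Kpna4 would join Ipo4 and Ranbp1, making 4 of 44 members lower beside 1.13% of all genes.

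The other 9 import receptors had differences between -0.10 and 0.11. Tnpo1, transportin 1, an importer of RNA-binding proteins, read 3792, 4118 and 4268 in control arrays and 4068, 3776 and 4079 after TDP-43 siRNA (-0.03, confidence interval from -0.17 to 0.11). Its probe set 1455043_at was at -0.13 with groups apart, and 1419864_x_at at -0.16 with groups overlapping. Averaging the probe sets put Tnpo1 at -0.11 (limma adjusted p = 0.665). Tnpo3, the importer of SR splicing proteins, was at -0.06 and Tnpo2 at 0.10. Ipo9 read 2170.1, 2127 and 2086 against 2273, 2441 and 2184, with the groups just apart, at 0.11 (SE 0.07, limma adjusted p = 0.528). Another of its probe sets, 1439481_at, pointed the other way at -0.20, and averaging the probe sets put Ipo9 at -0.000905.

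Ipo11 read 612, 655 and 651 in control arrays and 709, 702 and 663 after TDP-43 siRNA, again just apart (0.11, SE 0.08, limma adjusted p = 0.613). Ipo5 was at 0.06, Ipo7 at 0.09, Ipo13 at -0.02 and Ipo8 at -0.10, and in these 4 the groups overlap. Of the 11 import receptors measured, Ipo4 had the largest difference and Kpnb1 the next.

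Among the 6 exportins 0 passed, with 1 at an unadjusted p below 0.05. That was Xpot, which carries tRNA out of the nucleus. Its control arrays read 3396, 3259 and 3318 and its TDP-43 siRNA arrays 3796, 3873 and 3863, and the groups were apart with little spread. The difference was 0.21 (SE 0.05, limma adjusted p = 0.126, confidence interval from 0.09 to 0.33). Its other 2 probe sets were at 0.21 and 0.25, but on these control replicate 3 (3012 and 2777) lay among the TDP-43 siRNA arrays (2864 to 3273 and 2656 to 2931).

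Xpo1, the main exporter of proteins with a leucine-rich signal, read 5333, 5511 and 5281 in control arrays and 5053, 5021 and 4976 after TDP-43 siRNA (-0.10, SE 0.05, limma adjusted p = 0.451). Its groups were apart, while its second probe set was at 0.07 with overlapping groups. Cse1l, which returns importin alpha to the cytoplasm, read 4761, 4833 and 4308 against 4080.4, 4526 and 4146 (-0.12, SE 0.07, limma adjusted p = 0.484). Control replicate 3 lay below 1 TDP-43 siRNA array in Cse1l. Xpo6, the actin exporter, was at -0.16, Xpo7 at -0.03 and Xpo4 at 0.18, all with overlapping groups.

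The nucleoporins moved little, and 0 of 17 passed. On the cytoplasmic face Ranbp2, the large filament protein that docks RanGAP1, was at -0.12, Nup88 at -0.12 and Nup214 at -0.10. For Ranbp2 (2204, 2144 and 2118 against 1887, 2077 and 1978) and Nup88 (3232, 3270.5 and 3022 against 2917, 3006 and 2840.0) the TDP-43 siRNA arrays were all below the control arrays. In the outer ring, the Y-shaped scaffold of the pore, all 4 measured members were slightly lower, from -0.14 for Nup107 to -0.10 for Nup85, with Nup133 and Nup160 at -0.11. Only Nup133 of these 4 had groups that did not overlap.

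In the inner and membrane rings, Nup155 was at -0.16 with groups apart and its second probe set at -0.30, while Nup205 was at -0.05 and Nup93 at -0.03. Nup188 was uneven within groups, at 389, 389 and 186 in control arrays and 351, 270.3 and 199 after TDP-43 siRNA, with both arrays numbered 3 lowest (-0.19, SE 0.28). With single arrays left out the Nup188 difference ran from -0.53, without control replicate 3, to 0.01. Nup210, a membrane-spanning nucleoporin, had the largest positive difference of all members, 0.26 (SE 0.12, limma adjusted p = 0.418). It read 1022, 1091 and 1043 in control arrays and 1353, 1454 and 1013 after TDP-43 siRNA, so 2 arrays were high and replicate 3 was not. Without TDP-43 siRNA replicate 3 the Nup210 difference was 0.41 (limma adjusted p = 0.0831).

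In the central channel Nup62 read 4729.5, 4809 and 4858 in control arrays and 4996, 5230.5 and 5073 after TDP-43 siRNA, groups apart by a narrow margin (0.09, SE 0.05, limma adjusted p = 0.517). Its other 4 probe sets lay between -0.08 and 0.00. Nup98, which also anchors the mRNA export machinery, was at -0.13 and Nup54 at -0.02. In the nuclear basket Nup153 was at -0.01 and Nup50 at 0.06.

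**Figure D3:**
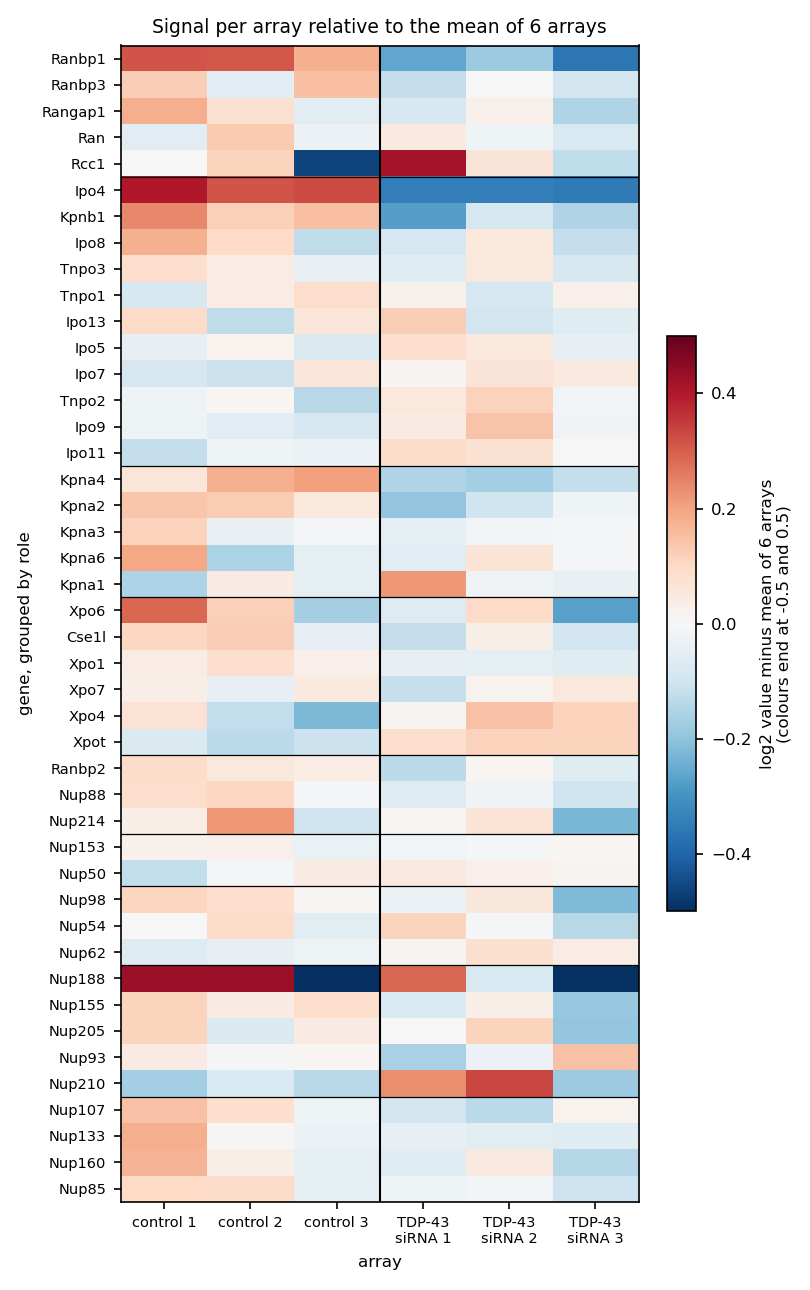
Log2 value of each of the 44 members (rows, grouped by role) on each array (columns), minus that gene's mean over the 6 arrays; colours end at -0.5 and 0.5. Ipo4 and Ranbp1 are high in all 3 control arrays and low in all 3 TDP-43 siRNA arrays, whereas Rcc1 and Nup188 are low in control replicate 3.

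Individual arrays differed in these genes within a group. Control replicate 1 was the highest array for 18 of 44 members and TDP-43 siRNA replicate 3 the lowest for 17. The mean over members, relative to the 6 arrays, was 0.07, 0.05 and -0.03 in control arrays and -0.02, 0.01 and -0.09 after TDP-43 siRNA, so control replicate 3 lay between TDP-43 siRNA replicates 1 and 3. Without control replicate 3, Ipo4 (limma adjusted p = 0.00171) and Ranbp1 (0.00297) were again the 2 members that passed lower, beside 0.888% of all genes. The within-group SD was smaller for members (median 0.08) than for all genes (0.13), and members were also brighter (median mean signal 1898 against 599).

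Markers of dividing cells were read beside these genes, and their differences lay on the lower side too. Of 15 such genes 14 were measured, all 14 were below 0 (45.0% of all genes were), and 2 fell (0.578% of all genes did), Cenpa, a histone of the centromere, by 0.33 (limma adjusted p = 0.0403) and Kif20a, a kinesin of mitosis, by 0.49 (0.0313). With single arrays left out, each passed in 1 of 6 fits, the one without control replicate 3, and adjusted p reached 0.192 for Cenpa and 0.148 for Kif20a. Without control replicate 3, Cdc20 (limma adjusted p = 0.00921), Plk1 (0.0379) and Ccnb2 (0.0497) passed lower too, beside 0.888% of all genes. With all arrays, 8 of the 14 had an unadjusted limma p below 0.05 (57.1%, against 12.6% of all genes). All 3 TDP-43 siRNA arrays lay below all 3 control arrays for 7 (50%, background 8.32%). The median was -0.26. The mean over the list was 0.18, 0.13 and 0.03 in control arrays and -0.09, -0.04 and -0.19 after TDP-43 siRNA, with control replicate 3 lowest among controls. Their part in the lower signals of Ipo4, Ranbp1, Kpnb1 and Kpna2 was not tested.

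The 44 members had 123 single-gene probe sets, of which 110 passed the filter. Of 32 members with several, 17 had all differences on one side of 0 and 15 did not. Of those 15, 13 also differed in sign among their probe sets with a mean signal of 100 or more. The widest spread was in Ranbp2, whose 4 probe sets ran from -0.39 to 0.42, and in Ipo7, from -0.69 to 0.09. Both extremes of Ranbp2 and the lower one of Ipo7 came from probe sets with a mean signal under 100, where the median SE was 0.24, against 0.07 for the 59 probe sets at 1000 or more. The 3 probe sets that passed over all probe sets were both of Ipo4 and the one of Ranbp1.

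**Figure D4:**
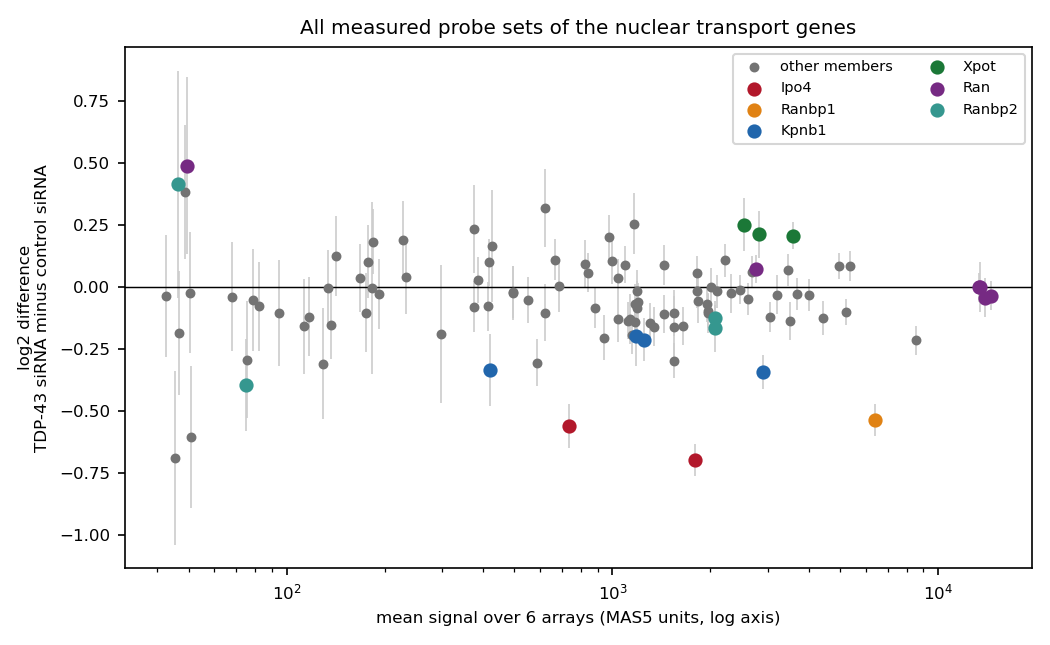
Log2 difference, TDP-43 siRNA minus control siRNA (y axis), against the mean signal over 6 arrays (x axis, log scale) for the 110 probe sets of the members that passed the filter; vertical lines are the SE of the limma fit. The 2 probe sets of Ipo4, the 4 of Kpnb1 and the 3 of Xpot each lie on one side of 0, while those of Ran and Ranbp2 lie on both.

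Other genes of nuclear transport, from lists of 68, were read in the same fit. Of 58 measured, 1 fell (1.72%, against 0.578% of all genes) and 0 rose (0.166% of all genes did). An unadjusted p below 0.05 was found for 2 (3.45%, against 12.6% of all genes), and the median was -0.02. The gene that fell was Aaas, the nucleoporin ALADIN, which read 1221, 1167 and 1095 in control arrays and 862, 894 and 812 after TDP-43 siRNA (-0.43, SE 0.08, limma adjusted p = 0.0385). Its groups were clearly apart, but with single arrays left out it passed in 1 of 6 fits, the one without control replicate 3 (0.0229), and adjusted p reached 0.184 in the others. The other 12 measured nuclear pore genes did not pass, with Seh1l at 0.17 and Pom121 at 0.20.

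Of 18 mRNA export genes 0 passed and 1 had an unadjusted p below 0.05 (5.56%, against 12.6% of all genes). It was the RNA helicase Ddx39b at -0.18 (SE 0.05, limma adjusted p = 0.189). The median of the mRNA export genes was -0.06, and Alyref, an adaptor that hands mRNA to the export receptor, was at -0.15. Of 8 further karyopherins and Ran cofactors 0 passed and none had an unadjusted p below 0.05, with Ranbp17 at 0.24 and Rangrf at 0.25. The same held for 5 genes of the SUMO pathway, which modifies RanGAP1 at the pore (Senp2 at 0.19, Sae1 at -0.09), and for 14 genes of the nuclear lamina and envelope (Tmpo at -0.12, Lmna at -0.18).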

How the data were processed

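RNA from 6 samples, 3 per siRNA group, was made into biotin-labelled cRNA from 100 ng of total RNA, per the labels' protocols, and read on Affymetrix mouse arrays. The deposited values are signal intensity on a linear scale, made by the authors with MAS5, per the submitters' processing notes; no version is given. The table's equal trimmed means (2% off each end) were measured on it. Detection calls were not used.

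Of 45101 probe sets, 34945 had 1 gene in the platform annotation, 932 several, 9160 none listed, and 64 were controls. Symbols were updated by Entrez number with RefSeq (34754 matched). The pseudocount of 12 is the table's 20th percentile, rounded; all controls and the dimmest 40% of the others by mean signal were left out, and 27022 stayed. The test, two-sided, was limma 3.58.1 (R 4.3.3): lmFit, then eBayes allowing a trend with intensity, adjusted by Benjamini-Hochberg over 12619 genes or 27022 probe sets, threshold 0.05. Figures used matplotlib 3.10.9.

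The members, lists and tests were chosen with earlier results of these data known. Values per array are given for the core of the Ran, import and export cycles, for members past the threshold, and for up to 5 largest differences each way among members whose groups did not overlap; the extremes of each role are named. Per-array values of Ranbp2, Nup88, Nup188 and Nup210 were added after their values were seen. In each other list, members past the threshold and up to 2 others with the smallest p are named. Nup58 and Nup42 were read under the older symbols Nupl1 and Nupl2. Protein sequences were not used here. The limma fit was tested on simulated data: for this comparison over 12619 genes, 45% of 100 genes changed by 0.5 and 84% of 100 changed by 1 were recovered, with 4 unchanged genes called. The simulated noise was independent between genes, so it held no deviation shared by the genes of an array. These figures therefore need not hold for the real arrays or for the members.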

Additional observations from a re-analysis of the deposited data

How the results depend on the processing

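The alternatives were array weights, robust variance and a fit with no intensity trend; pseudocounts of 1 and 42; a 60% filter or none; median centring and quantile normalization; averaging the probe sets of a gene; the replicate number as a block; leaving out each array, or both arrays numbered 3; and a threshold of 0.1. Ipo4 passed in all 18 fits and Ranbp1 in 17; 0 members rose in any, and between 27 and 32 lay below 0. Members lower numbered 1 without the intensity trend, where Ranbp1 (limma adjusted p = 0.0869) and Tardbp (-0.85, limma adjusted p = 0.0609) did not pass, and 4 at the threshold of 0.1; the cause was not tested. The 1 other nuclear transport gene that fell, Aaas, gave a count of 0 with no filter, median centring or no intensity trend, and from 0 to 1 with single arrays left out. With averaged probe sets the sign turned, without passing, for Ran (0.0818), Nup62 (-0.0225) and Ipo9 (-0.000905). Tardbp was at -1.13 with its probe sets averaged (limma adjusted p = 0.000769), a larger fall than on its brightest probe set. With single arrays left out Ran ran from -0.0670 to 0.0240 and Tnpo1 from -0.0776 to 0.00741, above 0 without control replicate 2 for Ran, and for Tnpo1 when either TDP-43 siRNA replicate 2 or control replicate 3 was left out. The median over members ran from -0.10 to -0.03 with single arrays left out. Over all genes 94 passed, against 51 with no filter, 12 without the trend, 161 with array weights, 61 with averaged probe sets, 214 without both arrays numbered 3 and 31 to 253 with single arrays left out. Deviations of same-numbered arrays correlated at -0.12, -0.14 and 0.24. Those of differently numbered arrays lay between -0.18 and 0.30. Control 2 with TDP-43 siRNA 1 was at 0.30 and control 1 with TDP-43 siRNA 2 at 0.23. These values do not settle whether the samples were paired. With the replicate block, which pairs by number, 2 members were lower, Ipo4 (limma adjusted p = 0.00306) and Ranbp1 (0.00279). Wide SEs limit what can be said of members such as Xpo4 (SE 0.13), Rcc1 (0.17) and Nup188 (0.28).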
